A study of Mus musculus with 62 samples.

Results

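The clones described here are 11 ER-Hoxb8 clones whose progenitors carried far more S100a9 mRNA than those of the other 13 clones. They are called primed here, and the other 13 unprimed. The choice used the progenitor libraries alone: S100a9 was expressed as CPM, that is, a gene's read count per M (mega) counts of the library, and the 11 highest of the 24 progenitor samples were chosen by it. The series holds 62 bulk RNA samples of the mouse, of which 48 come from these 24 clones. S100a9 itself appears below only as the value that made the choice.

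All 24 clones are ER-Hoxb8 cells, bone marrow granulocyte-monocyte progenitors kept dividing by a Hoxb8 protein that depends on estrogen. All carry that construct, and per the labels all were kept in RPMI medium with 10% FBS, penicillin/streptomycin and SCF (stem cell factor). Each line is 1 clone, with 1 library of the progenitor state and 1 of the monocytic state. The labels give no genotype, strain or age, do not say how the monocytic state was reached or after what time, and do not say whether clones came from separate animals or cultures. The p-values below therefore measure the spread between these samples only. The progenitors divide under a forced Hoxb8 program and are not fresh marrow cells.

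S100a8 and S100a9 are small calcium-binding proteins that pair to form calprotectin, which fills the cytoplasm of neutrophils and is also made by classical monocytes. In the marrow, neutrophil precursors switch on genes in waves: first the primary (azurophil) granule proteins such as myeloperoxidase and neutrophil elastase, later the secondary (specific) and tertiary (gelatinase) granule proteins such as lactoferrin, cathelicidin and Ngp. The transcription factor C/EBP epsilon, encoded by Cebpe, is required for the later wave. Granulocyte-monocyte progenitors carry the first wave and little of the later one.

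The promoters of 4 genes that the primed clones shared are shown here because the same 4 genes are followed through both states below. They are the RefSeq sequences of the build GRCm38.p6, from 250 bases before to 50 bases after each gene's start, 5′ to 3′ on the gene's own strand. Capitals mark matches to a C/EBP motif, searched as TTGCNNAA and its reverse complement TTNNGCAA, or to a PU.1 motif, searched as GAGGAA and its reverse complement TTCCTC. No match of 1 motif overlapped a match of the other in these sequences.
S100a8 (chr3:90668821-90669120, plus strand): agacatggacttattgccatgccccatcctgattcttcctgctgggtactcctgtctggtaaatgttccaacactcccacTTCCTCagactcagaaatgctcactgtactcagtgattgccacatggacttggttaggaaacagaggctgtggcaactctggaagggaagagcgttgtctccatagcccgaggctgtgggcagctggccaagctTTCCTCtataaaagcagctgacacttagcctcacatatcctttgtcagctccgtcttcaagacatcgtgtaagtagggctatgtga
Ngp (chr9:110419558-110419857, plus strand): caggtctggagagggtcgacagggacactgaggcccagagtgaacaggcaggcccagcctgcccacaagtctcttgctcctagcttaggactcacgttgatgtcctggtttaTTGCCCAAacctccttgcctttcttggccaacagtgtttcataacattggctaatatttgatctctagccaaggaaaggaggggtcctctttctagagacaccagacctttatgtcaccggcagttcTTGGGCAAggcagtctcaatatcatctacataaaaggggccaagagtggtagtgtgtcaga
Camp (chr9:109849407-109849706, minus strand): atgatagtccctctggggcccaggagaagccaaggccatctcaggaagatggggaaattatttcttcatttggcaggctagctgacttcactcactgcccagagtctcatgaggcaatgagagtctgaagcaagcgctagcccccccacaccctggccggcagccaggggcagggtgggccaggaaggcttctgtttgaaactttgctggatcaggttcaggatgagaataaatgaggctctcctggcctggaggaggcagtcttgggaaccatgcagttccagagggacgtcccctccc
Ltf (chr9:111019042-111019341, plus strand): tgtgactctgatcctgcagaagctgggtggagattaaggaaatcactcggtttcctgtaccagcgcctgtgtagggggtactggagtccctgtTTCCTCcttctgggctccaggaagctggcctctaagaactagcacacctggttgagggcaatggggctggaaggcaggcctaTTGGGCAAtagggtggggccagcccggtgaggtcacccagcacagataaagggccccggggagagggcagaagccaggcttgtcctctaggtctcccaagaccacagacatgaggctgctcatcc

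The C/EBP letters matched 2 times in the Ngp promoter, 1 time in that of Ltf and 0 times in those of S100a8 and Camp. Of all 32851 promoters of this length, 10.8% held such a match. The PU.1 letters matched 2 times for S100a8, 1 time for Ltf and 0 times for Ngp and Camp, against 28.3% of all promoters with at least 1 match. A match is only a match of letters in this window. Ngp, Camp and Ltf all lie on chromosome 9, while S100a8 lies on chromosome 3.

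The values that made the choice ran over 4 orders of magnitude on the plot of S100a9 by clone. In the primed progenitors S100a9 stood at 4466 CPM in clone 20, 3251 CPM in clone 21 and 403.3 CPM in clone 16. Clones 4, 5, 15, 3, 2 and 1 followed with 345.5, 212, 196.2, 159.9, 113.2 and 101.6 CPM. The last 2 primed clones were clone 19 at 52.69 CPM and clone 18 at 35.58 CPM. The first unprimed clone was clone 7 at 5.31 CPM, so the step between the classes was 6.7-fold. Clones 22, 23, 25 and 17 were lowest, at 0.13, 0.30, 0.31 and 0.63 CPM. These values are a description and no test was made on them.

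**Figure D1:**
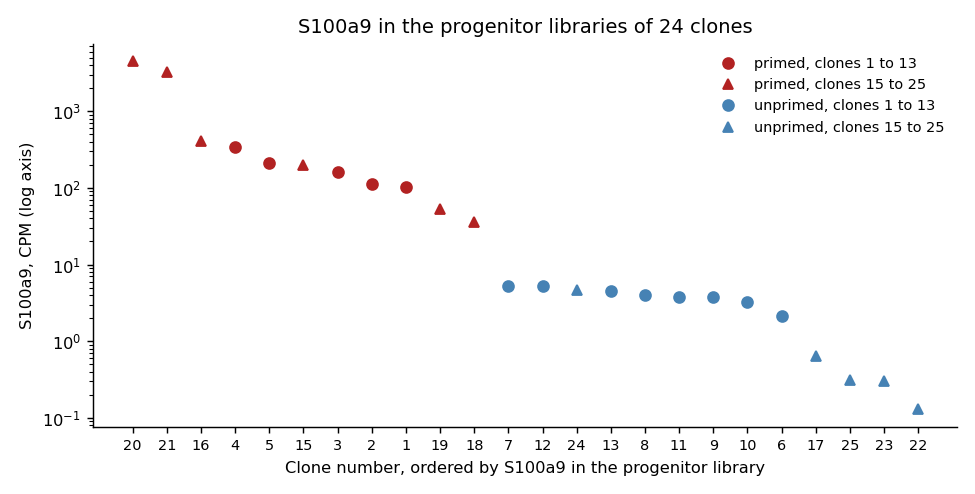
S100a9 (CPM, log axis) in the progenitor library of each of the 24 clones, ordered by level; each point is 1 library, red for primed and blue for unprimed clones, circles for clones 1 to 13 and triangles for clones 15 to 25. The step of 6.7-fold lies between clone 18 (35.58 CPM) and clone 7 (5.31 CPM), and clones 20 and 21 stand above all others.

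The clones fall into 2 numbered sets, 1 to 13 and 15 to 25, and the set was a covariate throughout. In the first set the primed clones are exactly clones 1 to 5 and the unprimed clones exactly 6 to 13, so anything tied to clone number cannot be told apart from the class there. In the second set the primed clones are 15, 16, 18, 19, 20 and 21 and the unprimed clones are 17, 22, 23, 24 and 25. Progenitor libraries held 0.362 to 32.0 M counts (M, mega) in primed and 3.25 to 47.3 M in unprimed clones. The lowest total, 0.362 M, belongs to clone 21, whose S100a9 value rests on 1177 reads. The monocytic libraries of the second set were shallow, with 1.83 to 9.12 M counts against 22.9 to 34.5 M in the first set.

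Of 6 listed markers of granulocyte-monocyte progenitors, 5 had a median of at least 1 CPM in the progenitors of each class. Hoxa9 was too low to be tested. The summed level of Kit, Cd34, Flt3, Mpo, Elane and Hoxa9 was 7339 to 20440 CPM in primed clones (median 10690) and 6535 to 11640 CPM in unprimed clones (median 9645). Markers of other cells were at hand in very different amounts. The neutrophil list (7 genes) summed to 73.2 to 2821 CPM in primed and 3.64 to 132.9 CPM in unprimed progenitors, and Ly6g, its most specific member, was at 0 in all 13 unprimed libraries and at most 0.125 CPM in the primed ones. The monocyte list (6 genes) summed to 614.5 to 3775 CPM and 628.9 to 2853 CPM. The list for basophils or mast cells (5 genes) was high in both classes, at 965.3 to 9091 CPM and 2002 to 12540 CPM. The eosinophil list (3 genes) summed to 3.71 to 350.8 CPM in primed and 0.13 to 2.49 CPM in unprimed clones, without overlap. Only 1 of its 3 genes had a median of at least 1 CPM in primed progenitors, and only Prg2 could be tested. The T cell gene Cd3e was at 0 in every progenitor library, while erythroid, B cell and macrophage lists reached at most 52.7, 3.19 and 6.06 CPM. In bulk RNA, fewer cells of a type and less RNA per cell cannot be told apart, and the part of a few more mature cells in the values below was not tested.

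In the progenitors, primed clones carried the mRNAs of secondary and tertiary granule proteins, of the stefin A cluster and of S100a8 at levels far above those of the unprimed clones, with list medians of 7.60 and 7.11 on the log2 scale, while the lists for primary granules, the cell cycle and progenitor regulators had medians of 0.03, −0.01 and −0.10. The fit with edgeR's quasi-likelihood test placed 60 of 11956 genes higher in primed clones (0.502%) and 11 lower (0.092%) at an adjusted p threshold of 0.05, or 71 in all (0.594%). Because the classes were cut from S100a9 in these same libraries, these calls list the genes that went along with it and are given without p-values. The 2 directions differed in size: the median log2 difference was 4.74 among the 60 higher genes, 35 of which exceeded 4, and 0.85 in size among the 11 lower ones, of which 3 exceeded 1. Over all genes the median was −0.02. Several of the higher genes were close to absent in unprimed clones, so the size of their differences depends on the prior count.

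S100a8, the partner of S100a9 in calprotectin, ran from 19.7 to 3256 CPM in primed progenitors (median 135) and from 0.13 to 4.11 CPM in unprimed ones (median 2.33). Every primed library lay above every unprimed one. The fitted difference was 7.24 ± 0.94 on the log2 scale (SE, n = 11 and 13), 5.52 ± 0.31 among clones 1 to 13 and 10.03 ± 1.84 among clones 15 to 25. For scale, 2 libraries of primary classical monocytes in the series held 228.9 and 285.7 CPM of S100a8, so the median primed progenitor lay below them.

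Ngp, a cystatin-like protein of the neutrophil granule, ran from 6.75 to 1172 CPM in primed progenitors (median 77.8) and from 0 to 2.93 CPM in unprimed ones (median 0.20). The groups did not overlap, and the fitted log2 difference was 8.35 ± 0.85. Ltf, the iron-binding protein lactoferrin, ran from 4.42 to 866 CPM (median 42.4) against 0 to 0.88 CPM, with 7 of the 13 unprimed libraries at 0. Its difference of 9.37 ± 0.91 was the largest of the genes called. Camp, the cathelicidin precursor, ran from 0.49 to 175.8 CPM (median 8.32) against 0 to 0.29 CPM, a difference of 7.84 ± 0.93. For these genes the lowest primed clones were always 18 and 19, at 6.75 and 11.4 CPM of Ngp, and the highest were 20 and 21.

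For Lcn2, the siderophore-binding lipocalin, the classes overlapped, unlike for Ngp, Ltf and Camp. They also overlapped for other listed granule genes, such as Mmp8, Mmp9 and Padi4. Lcn2 ran from 16.97 to 564 CPM in primed clones (median 50.8) and from 1.66 to 127 CPM in unprimed ones (median 4.59). Only clones 20 and 21 lay above all unprimed libraries. The unprimed clones above 10 CPM were the 5 of the second set, and the fitted difference was 3.11 ± 0.35 in the first set and 1.72 ± 0.82 in the second. Over all clones it was 2.44 ± 0.46 and was called. It was no longer called without clones 20 and 21 (1.93 ± 0.50) or without the set as covariate (2.28).

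**Figure D2:**
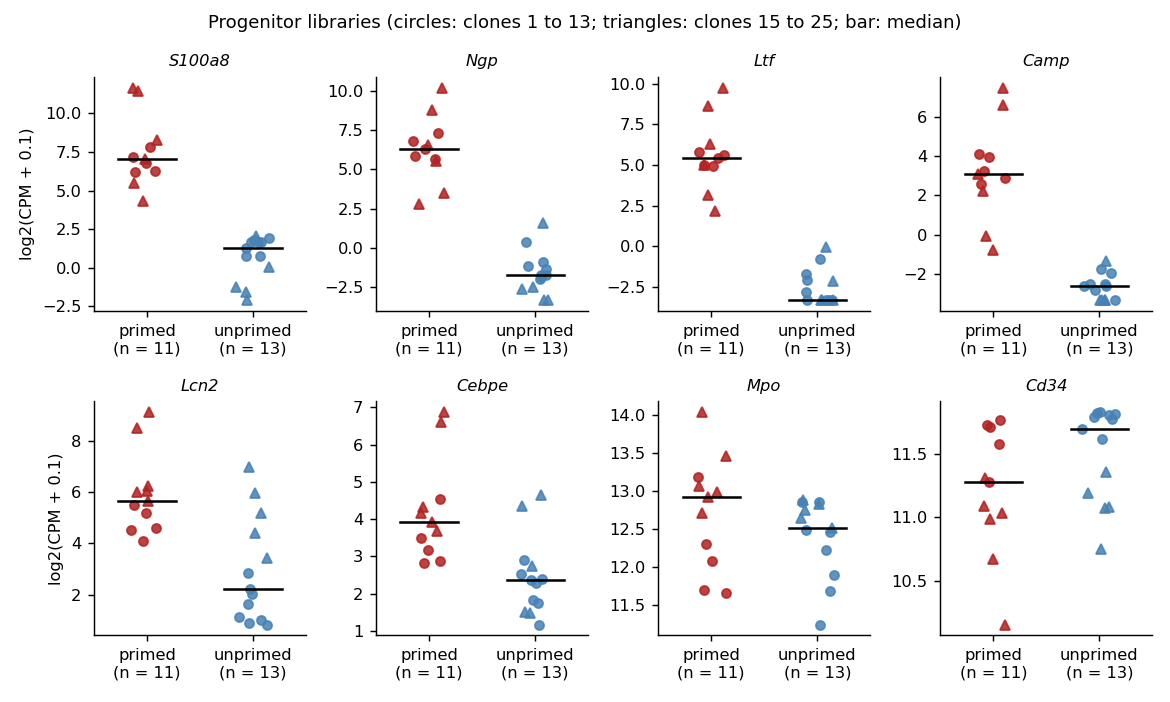
Level of 8 genes in the 24 progenitor libraries as log2(CPM + 0.1); each point is 1 library (red primed, n = 11; blue unprimed, n = 13; circles clones 1 to 13, triangles clones 15 to 25) and the bar is the median. S100a8, Ngp, Ltf and Camp separate the classes completely, while Lcn2, Cebpe, Mpo and Cd34 overlap.

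Of the 14 listed genes of secondary and tertiary granules, 13 could be tested in progenitors. Against 0.502% higher and 0.092% lower over all genes, 10 of them were called higher and 0 lower (list median 7.60). Beside those above they include Chi3l3, a chitinase-like lectin (8.69 ± 0.72), Olfm4, the olfactomedin of a subset of neutrophils (8.44 ± 0.72), and Itgb2l, an integrin beta chain (8.34 ± 1.02). The other called members were Lrg1 (7.60 ± 0.95), the gelatinase Mmp9 (6.31 ± 0.68) and the histone-citrullinating enzyme Padi4 (2.63 ± 0.56). Mmp8, the neutrophil collagenase and a protein of the same granules, was not called at −0.38 ± 0.50, with 3.30 to 187 CPM in primed and 12.6 to 242 CPM in unprimed progenitors. Hp (2.26) and Pglyrp1 (1.43) were not called either. Several of these genes were close to absent in unprimed clones, where the 13 libraries together held 5 reads of Olfm4, 5 of Itgb2l and 4 of Chi3l1. Their fitted differences depend on the prior count, and such genes could pass the count filter through the primed libraries alone. The count of 10 among the 13 tested is therefore a description and no separate support.

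The stefin A cluster encodes small inhibitors of cysteine proteases. Of its 9 listed genes 6 passed the count filter, which a gene could pass through the primed libraries alone. All 6 were called higher (median 7.11), against 0.502% of all genes. Clones 15 to 25 alone had 4 testable genes with 2 called, and clones 1 to 13 had 6 and 6. Stfa1 ran from 2.73 to 690.7 CPM in primed clones (median 24.5) against 0 to 1.17 CPM in unprimed ones, a difference of 7.29 ± 0.92. Stfa2l1 differed by 7.07 ± 0.84 and Gm5483 by 7.56 ± 0.89. These genes have near-identical copies with which reads may be shared, so their single values are uncertain, as are those of Chi3l3 and Ly6c2.

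By list median the first granule wave differed from the later one, at 0.03 over 13 primary granule genes against 7.60. Of the 13, 0 were called in either direction, which is near the share of 0.594% called over all genes. Mpo ran from 3222 to 16820 CPM in primed and from 2421 to 7516 CPM in unprimed progenitors, with 6 of 11 primed libraries above all unprimed ones and a fitted difference of 0.19 ± 0.21. Elane was the exception in size, at 7.52 to 1975 CPM (median 145.6) against 3.56 to 84.0 CPM (median 7.95). Its difference was 3.50 ± 0.85 and was not called over all genes. It was called without clone 2, 3, 11, 18 or 21, with no filter on low counts, without the set or with the total count as covariate, and by DESeq2, with values from 2.88 to 4.19.

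No transcription factor of the 2 lists was called, which is near the share of 0.594% called over all genes. Cebpe ran from 7.003 to 116.9 CPM in primed progenitors (median 15.2) and from 2.14 to 24.9 CPM in unprimed ones (median 5.09). Only clones 20 and 21 exceeded all unprimed clones, and the difference of 1.52 ± 0.44 was not called. Without those 2 clones it was 0.90 ± 0.36. Gfi1, a repressor needed for neutrophil formation, differed by 0.24 ± 0.13, and Irf8, which directs monocyte fate, by 0.20 ± 0.39. The lists' medians were 0.28 over 10 tested granulocyte factors and 0.35 over 12 tested monocyte factors. DESeq2 called Cebpe.

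Genes of the progenitor state were not called and overlapped between the classes. Cd34 ran from 1138 to 3483 CPM in primed and 1717 to 3635 CPM in unprimed clones (−0.25 ± 0.10), and the SCF receptor Kit from 395 to 944 CPM and 261 to 699 CPM (0.08 ± 0.13). Reads on Hoxb8, which can come from the construct, ran from 91.8 to 695.9 CPM and 60.3 to 1836 CPM (−0.34 ± 0.34). Of 18 tested progenitor regulators 0 were called. The same count of 0 held for 26 cell cycle genes, 17 ribosome biogenesis genes and 14 glycolysis genes, with medians of −0.01, −0.04 and −0.07. With 0.594% of all genes called, a count of 0 in lists of this size is near that share and says little about them.

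Among genes of monocytes and of other leukocyte lineages, single members were called, while uncalled members of some lists leaned positive. All 16 tested pattern recognition and phagocytic receptors were positive (median 1.15), with 0 called, near the share of 0.594% over all genes. Of the monocyte transcription factors 11 were positive and 1 negative, and of the growth factor receptors 11 and 2. The erythroid and megakaryocyte list was split, with 5 positive and 5 negative. Ly6c2, the Ly6C antigen of classical monocytes, was the 1 of 18 tested monocyte differentiation genes to be called (list median 0.34). It ran from 3.12 to 1061 CPM in primed clones (median 69.5) and from 0.21 to 38.1 CPM in unprimed ones, and 8 of 11 primed clones lay above all unprimed clones (4.41 ± 1.02). That call was lost in 13 of the 24 fits that left out 1 clone, with values of 3.95 to 5.38 over all 24 fits. Csf1r, the receptor of the main monocyte growth factor, was not called at 1.89 ± 0.69. Cybb, the catalytic subunit of the phagocyte NADPH oxidase, was the 1 of 6 oxidase genes called, at 2.07 to 116 CPM against 0 to 7.21 CPM (4.92 ± 0.65). Prg2, the major basic protein of eosinophil granules, was the 1 of 12 tested genes of mast cells, basophils and eosinophils called. It ran from 3.34 to 245.8 CPM in primed and from 0 to 1.66 CPM in unprimed progenitors (5.12 ± 0.88). Of the neutrophil surface and chemotaxis list, Retnlg, a resistin-like peptide (7.94 ± 0.80), and the formyl peptide receptor Fpr2 (5.80 ± 0.96) were higher, and the lectins Clec4d and Clec4e were lower.

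**Figure D3:**
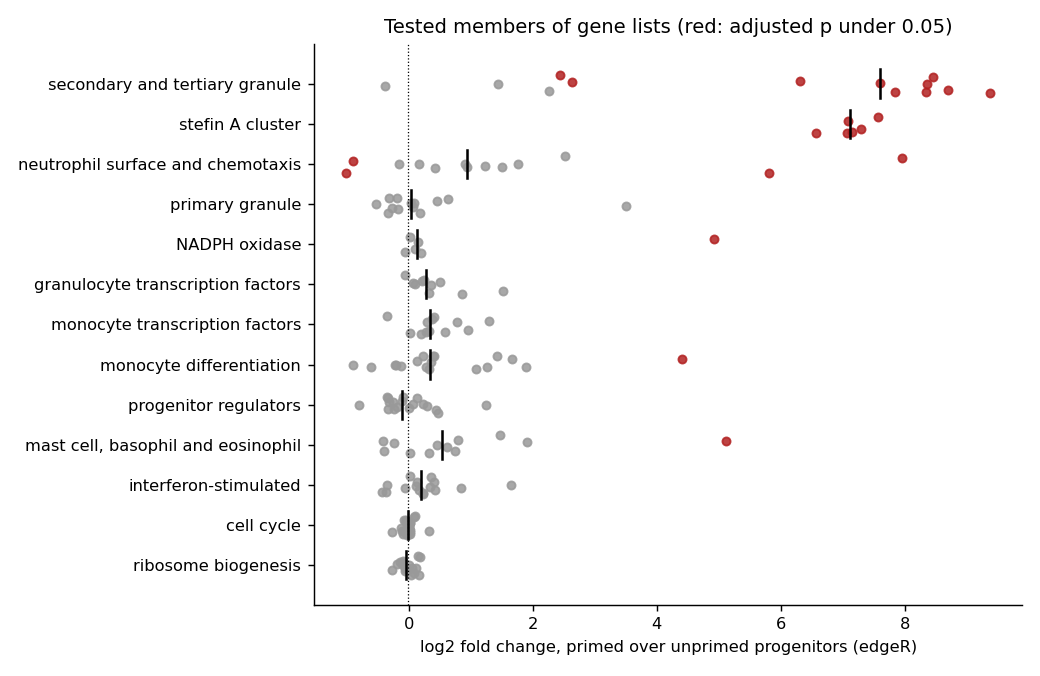
Fitted log2 fold change, primed over unprimed progenitors (x axis), of every tested member of 13 gene lists; each point is 1 gene, red where the adjusted p was under 0.05, and the bar is the list's median. Red points gather above 6 in the granule list and the stefin A cluster, whereas the cell cycle and ribosome biogenesis lists lie within a narrow band at 0.

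The 11 lower genes had small differences and moderate to high levels. Tsc22d1, a leucine zipper regulator, ran from 0 to 341.6 CPM in primed and from 143.1 to 390.4 CPM in unprimed clones (−1.25 ± 0.28). Ptger2, a receptor for prostaglandin E2, differed by −1.12 ± 0.25. Clec4d and Clec4e, which encode the neighbouring receptors MCL and Mincle for mycobacterial glycolipids, differed by −1.01 ± 0.21 and −0.90 ± 0.19. Csrp1, a LIM domain protein, differed by −0.90 ± 0.20 and the SLAM family receptor Cd48 by −0.85 ± 0.20. The rest were Dnajc10, Bphl, Gpr171, Fam108b and Tespa1, at −0.84 to −0.46. None of the 11 separated the classes completely over all clones. All 11 had a negative difference in both sets fitted alone, with a median of −0.40 in clones 1 to 13, where 0 of them were called, and −1.45 in clones 15 to 25, where 6 were. Over all genes, the first set alone gave 0 lower genes and the second 76. Without clones 20 and 21, Ptger2, Clec4e, Csrp1 and Cd48 were no longer called, at −1.12, −0.78, −0.82 and −0.81. All primed clones lay below all unprimed ones for 9 of the 11 genes within the second set and for Tespa1 alone within the first, at 30.2 to 44.7 CPM against 45.6 to 53.3 CPM. Csrp1 had 531 to 749.2 CPM in primed and 488 to 996.3 CPM in unprimed clones of the first set, but 81.7 to 113 CPM against 241.8 to 392 CPM in the second.

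In CPM, 21 of the 11956 genes (0.176%) had all 11 primed libraries above all 13 unprimed ones, and 0 genes had them all below. Among the 21 were S100a8, Ngp, Ltf, Camp, Chi3l3, Olfm4, Itgb2l, Chi3l1, Mogat2, Retnlg, Lrg1, Stfa1, Stfa2l1 and Prg2. The complement component C3 was also among them, at 9.20 to 629.8 CPM in primed and 0.68 to 6.77 CPM in unprimed clones (4.75 ± 0.66); it was chosen for mention after its values were seen.

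The primed clones were not alike. Over the 14 granule genes summed, the progenitors of clones 20 and 21 held 3947 and 2431 CPM, or 0.395% and 0.243% of all counts. The 9 other primed clones held 98.4 to 465.9 CPM and the 13 unprimed clones 40.7 to 316.1 CPM, so the sums overlapped. In number of genes the classes did not overlap: 9 to 14 of the 14 genes reached 1 CPM in each primed progenitor library and 4 to 6 in each unprimed one. These libraries made the choice of clones, and 10 of the 14 genes were called in them. The count is therefore a description and no separate support. Without clones 20 and 21, an alternative chosen after seeing the data, 68 genes were higher and 10 lower, and S100a8, Ngp and Ltf differed by 5.96 ± 0.50, 7.36 ± 0.62 and 8.20 ± 0.63. With S100a9 as a continuous term in place of the classes, 297 genes were higher with it (2.35%) and 96 lower (0.761%), and 69 of the 71 genes were among them. That term holds the same S100a9 values, from the same libraries, that made the classes. The shared calls are therefore a description and no separate support.

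The 2 sets of primed clones also differed in the mix of these genes. The ratio of Ngp to S100a8 counts was 0.656 to 0.797 in the 5 primed progenitors of the first set and 0.157 to 0.360 in the 6 of the second, without overlap. The ratio for Camp was 0.0668 to 0.120 and 0.0191 to 0.0540. These ratios are not corrected for gene length and compare clones, not genes.

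The 6 primed clones of the second set shared further features that the first set did not show, in genes chosen after their values were seen. Gbp4, an interferon-inducible guanylate-binding protein, was at 0 in clones 15, 16, 18 and 21 and at 0.19 and 0.24 CPM in clones 19 and 20, against 126.6, 142, 77.6, 13.9 and 229.2 CPM in the unprimed clones 17, 22, 23, 24 and 25. In the first set primed clones held 42.6 to 69.0 CPM and unprimed clones 44.8 to 195.4 CPM. Gbp6, Gbp8 and Gbp9 followed the same pattern. Sema3d, a secreted semaphorin, ran the other way, at 43.2 to 69.6 CPM in those 6 clones and at most 1.04 CPM in the 5 unprimed clones of the set. Among the first set's primed clones it was at 14.5 CPM in clone 4 and at or below 0.48 CPM in the other 4. The labels do not say whether these 6 clones share an origin, so an origin in common and the class cannot be told apart in this set. In a fit with a class by set term, the primed minus unprimed difference was higher in the second set for 14 of 12419 genes (0.113%) and lower for 67 (0.539%).

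Set against the monocytic library of the same clone, the primed progenitors held a small part of the mature level of the granule genes. S100a8 in progenitors stood at a median of 1.29% of the same clone's monocytic level in primed clones (0.12% to 14.2%) and at 0.017% in unprimed ones (0.0074% to 0.13%). Ngp stood at 1.34% and 0.0025%, Camp at 1.04% and 0.0016%, and Chi3l3 at 1.28% and 0.0017%. For Lcn2 the classes overlapped, with medians of 2.156% and 0.1757%. Its shares of 43.54%, 29.6% and 27.34% in the unprimed clones 22, 23 and 24 lay above the primed maximum of 10.96%. Ltf reached 8.949% in primed clones but 41.2% in the unprimed clone 22. In that clone Ltf was near absent in both states, at 0.1295 CPM and 0.3144 CPM. The highest shares among primed clones, 8.60% for Ngp and 15.3% for Camp, are those of clone 20. Lyz2, the lysozyme of macrophages and granulocytes, stood at 2.71% and 0.90%, so the classes lay much closer for it, as the plot of single clones shows. Reads of Lyz2 may be shared with its near-identical copy Lyz1. Some other genes stood closer to the mature level. Csf1r, the receptor of the macrophage growth factor, had a median of 4.44% in primed clones and reached 41.8% and 35.4% in clones 20 and 21, where C3 was at 34.6% and 40.1%. Ly6c2 had a median of 14.7% in primed clones (0.49% to 394.7%) against 0.16% in unprimed ones (0.031% to 7.15%), and it was higher in the progenitors than in the monocytic cells of clones 20 and 21.

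**Figure D4:**
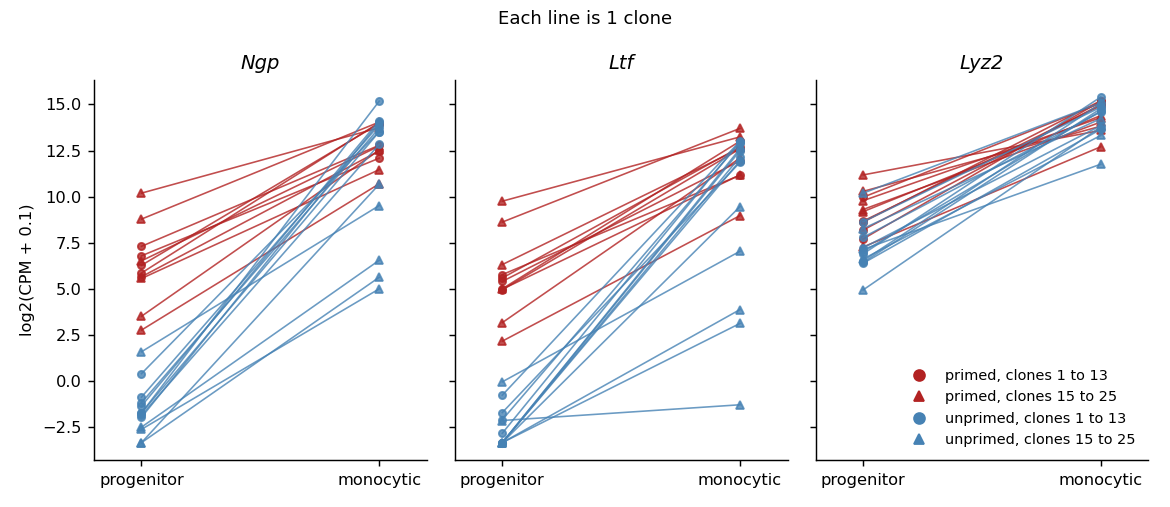
Ngp, Ltf and Lyz2 as log2(CPM + 0.1) in the progenitor and monocytic library of each clone, joined by a line (red primed, blue unprimed; circles clones 1 to 13, triangles clones 15 to 25). For Ngp and Ltf the primed clones start above the unprimed ones and the classes mix in the monocytic state, except for the low unprimed clones of the second set.

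The monocytic libraries were not used to choose the clones, so they give a test. It asks whether clones with S100a9-high progenitors went on to differ as monocytic cells. In these cells the levels of S100a8, Ngp, Ltf and Camp overlapped between the classes, with the lowest values in unprimed clones of the second set, and no gene passed the threshold. With edgeR's quasi-likelihood test, 0 of 12144 genes were higher and 0 lower (0% called) at an adjusted p of 0.05, while 1552 higher and 970 lower genes had an unadjusted p under 0.05. DESeq2 on the same genes called 531 higher and 146 lower, with Ltf and Cebpe among the higher. The smallest adjusted p of edgeR was 0.146, so the absence of calls does not show that the classes were alike.

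S100a8 ran from 3951 to 35990 CPM in the monocytic cells of primed clones (median 17770) and from 183 to 42030 CPM in those of unprimed clones (median 13310). The ranges overlapped, and the log2 difference was 1.35 (95% interval −0.30 to 2.99, edgeR adjusted p = 0.320). Ngp ran from 1660 to 16870 CPM (median 6853) and from 32.1 to 37030 CPM (median 11760), a difference of 1.71 (−0.54 to 3.96, edgeR adjusted p = 0.357). Ltf ran from 503.5 to 13320 CPM (median 6194) and from 0.31 to 8249 CPM (median 3953), a difference of 2.57 (−0.13 to 5.28, edgeR adjusted p = 0.261). Camp ran from 71.3 to 3451 CPM (median 1046) and from 1.26 to 5893 CPM (median 1075), a difference of 2.09 (−0.39 to 4.56, edgeR adjusted p = 0.307). Both were near absent in the unprimed clones 17, 22 and 23, with Ltf at 8.69, 0.31 and 14.7 CPM and Camp at 9.10, 1.26 and 2.41 CPM. Cebpe differed by 1.44 (0.22 to 2.65, edgeR adjusted p = 0.189), with 73.6 to 885.4 CPM in primed and 12.3 to 598.2 CPM in unprimed clones. The medians of Ngp and Camp in CPM lay lower in primed clones, while the fitted differences, which have the set as a covariate, were positive. Without that covariate they were −0.17 and −0.33. Csf1r, at 0.10 (−0.89 to 1.08, edgeR adjusted p = 0.924), and Ly6c2, at −0.58 (−1.21 to 0.05, edgeR adjusted p = 0.272), were not called either.

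**Figure D5:**
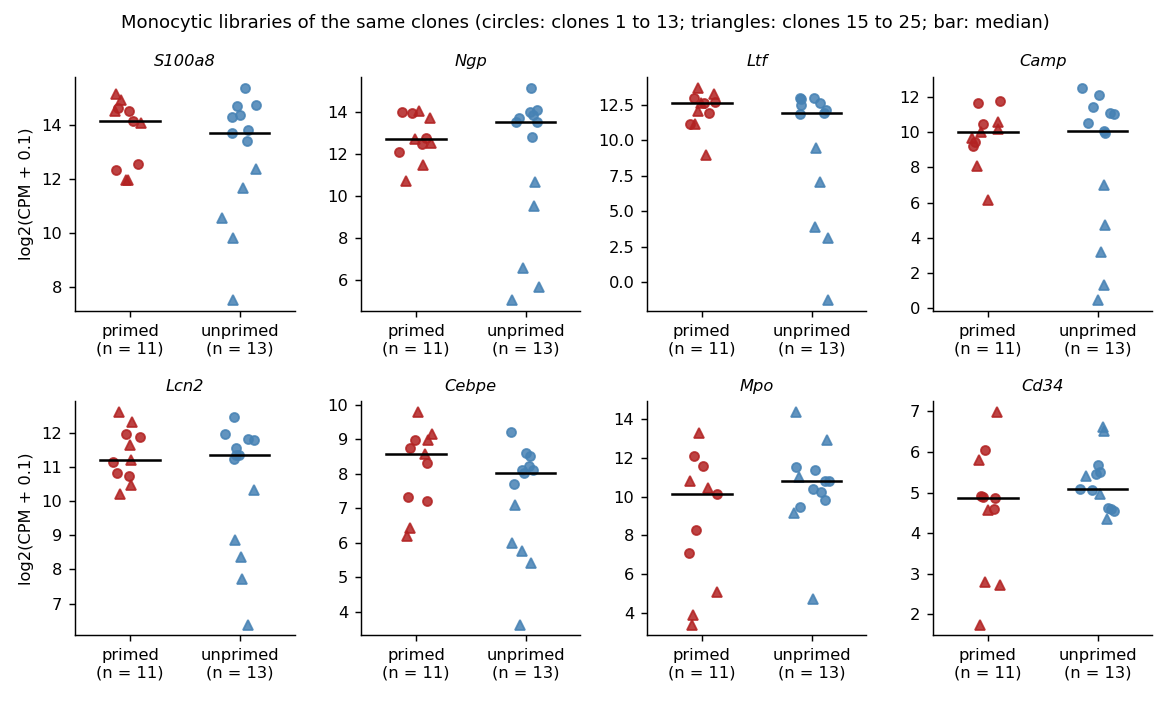
The same 8 genes in the 24 monocytic libraries as log2(CPM + 0.1), with points and bars as for the progenitors. The classes overlap for every gene shown, and the lowest points of S100a8, Ngp, Ltf, Camp and Lcn2 are unprimed clones of the second set.

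The genes that marked the primed progenitors leaned in the same direction in the monocytic cells without being called. Of the 60 higher genes, 56 could be tested there: 53 had a positive and 3 a negative difference, 0 were called, and the median was 1.07 against 0.002 over all genes. Of the 11 lower genes, 9 had a negative difference (median −0.33). In the granule list all 14 tested members were positive (median 1.79) and in the stefin A cluster all 7 (median 2.43), with 0 called in both. Primary granule genes leaned the other way, with 11 of 13 negative (median −0.46). Cell cycle genes were negative in 25 of 26 (median −0.48) and ribosome biogenesis genes in 16 of 17 (median −0.46), also with 0 called.

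The sets differed in this lean. In clones 15 to 25 fitted alone, 52 of 54 tested higher genes were positive (median 2.65), as were all 14 granule genes (median 3.55) and all 7 of the stefin A cluster (median 5.75). In clones 1 to 13 alone, 12 of 55 higher genes were positive (median −0.22), 4 of 14 granule genes (median −0.22) and 0 of 7 of the stefin A cluster (median −0.63). Of the lower genes, 9 of 10 were negative in the second set and 3 of 11 in the first. Interferon-stimulated genes turned completely, with 18 of 18 positive in the second set (median 2.39) and 0 of 20 in the first (median −1.71), and 0 called in either. Ribosome biogenesis genes were negative in 16 of 17 in the second set and in 5 of 17 in the first, and primary granule genes in 11 of 13 and 8 of 13. Cell cycle genes were negative in both, 24 of 26 and 25 of 26.

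Among clones 1 to 13, S100a8 in monocytic cells was at 5966, 25230, 23450, 17770 and 5149 CPM in primed clones 1 to 5 and at 10730 to 42030 CPM in the 8 unprimed clones (median 20570), with a log2 difference of −0.55 ± 0.44. Among clones 15 to 25 it was at 3951, 16880, 4006, 35990, 22960 and 30490 CPM in the 6 primed clones and at 1499, 183, 909, 3212 and 5330 CPM in the 5 unprimed ones, a difference of 3.45 ± 0.97. Only clones 15 and 18 fell within the unprimed range of that set. Ngp in the second set ran from 1660 to 16870 CPM in primed and from 32.1 to 1634 CPM in unprimed clones, without overlap, whereas in the first set it was 4353 to 16550 CPM against 7315 to 37030 CPM.

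The difference between the sets was itself tested as a class by set term. In monocytic cells 364 of 12702 genes (2.87%) had a higher primed minus unprimed difference in the second set and 141 (1.11%) a lower one, or 505 in all (3.98%). For Ngp the set difference was 5.09 ± 1.21 on the log2 scale (edgeR adjusted p = 0.0256), for Camp 5.44 ± 1.32 (edgeR adjusted p = 0.0274) and for Ltf 5.65 ± 1.46 (edgeR adjusted p = 0.0354). Lcn2, Cebpe and S100a8 passed as well, and Csf1r, Mpo, Kit and Cd34 did not. The second set's monocytic libraries are the shallow ones, with 1.83 to 3.71 M counts in primed and 2.42 to 9.12 M in unprimed clones, and the part of depth in this difference was not tested. The granule genes summed to 4828 to 49990 CPM in the primed and 561.8 to 5351 CPM in the unprimed clones of that set, which overlap only through clones 18 and 25, and to 16180 to 69600 CPM over all clones of the first set.

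With the progenitor S100a9 level as a continuous term in place of the 2 classes, 2168 of 12953 genes rose with it in monocytic cells (16.7%) and 1685 fell (13%). Per doubling of S100a9 in the progenitors, Ltf in monocytic cells rose by 0.44 ± 0.12 on the log2 scale, Ngp by 0.35 ± 0.10 and Cebpe by 0.23 ± 0.07. Vcan, a proteoglycan of classical monocytes, fell by 0.29 ± 0.10 per doubling and the chemokine Ccl2 by 0.27 ± 0.10. These calls rest on clones 20 and 21: without them 0 genes rose and 0 fell at the threshold, with 1061 and 656 at an unadjusted p under 0.05. They were also 0 and 0 within clones 1 to 13, with 350 and 285 at an unadjusted p under 0.05, and 2183 and 1742 within clones 15 to 25.

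From progenitor to monocytic cell, many of the genes that primed progenitors already expressed had a smaller log2 increase in primed than in unprimed clones. Several of them were close to absent in unprimed progenitors, so their log2 changes depend on that start level. The rise in CPM was not compared. With the clone as a block over all 48 libraries, the log2 change was more negative in primed than in unprimed clones for 69 of 14257 genes (0.484%) and more positive for 2 (0.014%). As this includes the progenitor libraries that made the choice, it is again a description. Olfm4 (−8.82 ± 0.70), Chi3l3 (−7.87 ± 0.66), Retnlg (−7.54 ± 0.77), Ltf (−7.43 ± 1.05) and Ngp (−7.24 ± 0.93) were among the 69, and 36 of the 60 genes higher in primed progenitors were. Arg1, encoding arginase 1, had the most negative value at −11.74 ± 2.20, but 10 of 13 unprimed progenitor libraries held no read of it. The 2 genes with a more positive change were the interleukin 1 receptor gene Il1r1 (2.18 ± 0.51) and 5830432E09Rik (1.25 ± 0.26). With no replicate block, that is, without pairing the libraries of a clone, 21 genes were more negative and 0 more positive, and Camp and Ltf were not called. Fitted alone, clones 1 to 13 gave 77 genes more negative and clones 15 to 25 gave 0, with Ltf at −1.61 and Ngp at −2.89 in the latter. That difference between sets was not tested.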

How the data were processed

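Bulk RNA libraries (RNeasy extraction, NEB kits) were sequenced from the progenitor and the monocytic cells of 24 ER-Hoxb8 clones. The deposited table holds raw read counts for 37620 genes; per the submitters' processing notes it was made with STAR 2.7.3a, HTSeq 0.6.0 and the build mm9. The strand setting, annotation release and filters are not given in the sources used here, so reads of overlapping or antisense genes, and of near-identical copies, may be shared. Gene symbols are those of the file. A further 1 column of values, which the labels tie to no sample, was left out. No 2 libraries were identical.

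The clones and the 26 gene lists were chosen with earlier results of these data known. S100a9 was left out before adjustment. CPM values are counts over the column total. Counts were fitted with edgeR 4.0.16 (limma 3.58.1, R 4.3.3): filterByExpr with a minimum count of 10, TMM scaling, clone set as covariate, 2-sided quasi-likelihood F test, Benjamini-Hochberg adjustment over all genes tested, threshold 0.05. Errors are SE and intervals 95%. The change between states had the clone as a block, since the labels give both libraries of a clone its number. The continuous term was log2(CPM + 1) of S100a9. DESeq2 1.42.0 was an alternative, as were other filters, scalings, covariates and sample subsets. The fit was tested on simulated data. Python 3.11.15 (pandas 2.3.3, numpy 2.4.6) made the tables.

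Always named were S100a8, Ngp, Camp, Ltf, Lcn2, Cebpe, Gfi1, Irf8, Csf1r, Mpo, Elane, Cd34, Kit, Hoxb8 and Ly6c2. To these came up to 12 progenitor genes per direction of largest change among those called whose log2 CPM averaged 2 or more (12 higher and all 11 lower), up to 5 per direction for the change (5 more negative and 1 more positive), and up to 3 called members and the most expressed uncalled member of each list, with predicted genes skipped. The remaining called members of the granule list, Gm5483, C3, Fpr2, Sema3d, the Gbp genes, Vcan, Ccl2 and Arg1's counts were described after their values were seen.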

Additional observations from a re-analysis of the deposited data

Results flagged for a closer look

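The primed minus unprimed difference was not the same in the 2 clone sets, by a class by set term in edgeR. In progenitors it was higher among clones 15 to 25 for 14 genes and lower for 67; these libraries made the choice of clones. In monocytic cells it was higher among clones 15 to 25 for 364 genes and lower for 141. The monocytic set differences of the always-named genes that passed were 3.946 for S100a8, 5.093 for Ngp, 5.439 for Camp, 5.654 for Ltf, 3.518 for Lcn2 and 3.298 for Cebpe on the log2 scale, each with 5 and 8 clones in the first set and 6 and 5 in the second.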

How the results depend on the processing

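In progenitors, the 60 higher and 11 lower genes became 24 higher with a minimum count of 50, 202 and 105 with DESeq2, 146 higher with no filter on low counts, 143 and 24 with log2 total count as covariate, and 297 and 96 with the continuous S100a9 level. The lower genes were 2 without clone set, 0 in clones 1 to 13 only and 76 in clones 15 to 25 only. With the continuous level, subsets chosen after seeing the data gave 96 higher without clones 20 and 21, 167 and 41 without clones 22 and 23, 0 lower in clones 1 to 13 and 187 and 77 in clones 15 to 25. Leaving out 1 clone at a time gave 55 to 96 higher and 7 to 22 lower genes. Of the 71 calls, 71 were shared with DESeq2, 62 with the fit without clones 20 and 21, and 34 with each clone set alone. The fit without clone set also called 71 genes, but only 37 of them were shared. With a minimum count of 50, 33 were shared.

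In monocytic cells, 0 and 0 became 531 and 146 with DESeq2, 14 and 3 in clones 15 to 25 only, and 2168 and 1685 with the continuous level, which gave 1555 and 1011 without clones 22 and 23 and 2183 and 1742 in clones 15 to 25. Leaving out 1 clone at a time gave 0 to 3 higher and 0 to 1 lower genes.

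For the change between states, the 2 genes more positive and 69 more negative became 0 and 21 with no replicate block (clones unpaired). The more positive genes were 1 without clone 21, 1 without clones 20 and 21 and 1 in clones 15 to 25 only, which had 0 more negative.

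Among the always-named genes, signs turned as follows, on the log2 scale. In clones 1 to 13 only they were, for progenitors, −0.080 for Irf8 and −0.042 for Mpo, and for monocytic cells −0.55 for S100a8, −0.76 for Ngp, −0.53 for Camp, −0.17 for Ltf, −0.36 for Lcn2, −0.13 for Cebpe, 0.22 for Irf8, 0.035 for Mpo, 0.030 for Elane, 0.025 for Cd34 and −0.37 for Hoxb8. For the change, Irf8 was 0.37 and Cd34 0.17 there. In clones 15 to 25 only, Csf1r was −0.24 in monocytic cells, and the changes of Lcn2, Cebpe and Hoxb8 were 2.05, 1.05 and 0.68. Without clone set, Ngp and Camp were −0.17 and −0.33 in monocytic cells. Without clones 20 and 21, Mpo in progenitors was −0.0056, Irf8 and Cd34 in monocytic cells 0.062 and 0.0086, and the change of Cd34 0.014. The change of Hoxb8 was 0.022 with DESeq2 size factors and 0.53 with no replicate block, and that of Cd34 0.024 with no replicate block. Single clones left out turned Irf8 and Hoxb8 in progenitors (ranges −0.12 to 0.56 and −0.43 to 0.26) and Gfi1, Csf1r and Mpo in monocytic cells (−0.42 to 0.12, −0.19 to 0.23 and −1.21 to 0.0098). None of these values was called, and the causes were not tested. Depth limits clone 21's progenitors (0.362 M counts) and the second set's monocytic cells most.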
